A study of Monascus purpureus with 9 samples.

Results

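The genes described here are 76 genes of the filamentous fungus Monascus purpureus that lie in 24 runs of consecutive gene numbers, each run falling at least 2-fold in both a Set1 knockout and a Swd3 knockout. They were chosen by the group means of the same 9 libraries. A gene counted as falling when the log2 ratio of its mean FPKM + 1 in a knockout to that in the wild type (WT) was -1 or less in both knockouts, and a run needed at least 3 falling genes with no number missing between them. FPKM is a fragment count scaled to transcript length and to the mapped fragments of the library, so levels of different genes are compared here per length. Members also had a WT mean under 1000 FPKM and changes in both knockouts that differed by less than 1.5-fold. Of 8918 rows named gene_ with a number, 715 fell in this way (8.02%), 78 of them stood in the runs, and 76 were members. The fall of the members is therefore how they were selected, and it is described below without a test.

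All libraries came from mycelium grown for 2 days in PDB medium. The genotypes were WT, Set1 knockout and Swd3 knockout, with 3 libraries each. The labels give no other treatment, no second strain of a knockout and no complemented strain, and they do not say whether libraries of a genotype came from separate cultures, so the spread between libraries may be technical. The table pairs none of its identifiers with a gene name, a position or a length, and 0 of its 9869 rows matched the 9270 entries of the reference gene list. The transcripts of Set1 and Swd3 could therefore not be looked up to check the labels, and no role is given to any gene below. Whether gene numbers follow the order of genes on the chromosomes is not stated in the sources used here, and the 951 rows named NewGene_ carry numbers of their own and could not be placed between the others.

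Set1 and Swd3 are core subunits of COMPASS, a conserved complex that methylates a lysine in the tail of histone H3 around the start of transcribed genes. Set1 carries the catalytic domain, and Swd3 is a WD40-repeat protein of the structural core that the catalytic subunit needs. In filamentous fungi, genes for a secondary metabolite such as a pigment often lie side by side in clusters that are switched on and off together, and in Aspergillus nidulans the loss of a COMPASS subunit is known to change the expression of such clusters. The study asked what Set1 and Swd3 do in a fungus grown for its pigments.

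The libraries were close to each other in total, with summed FPKM of 705678 to 729434, and depth is unknown because no counts are given. Over all 9153 tested genes the median log2 change was -0.06 in the Set1 knockout and -0.05 in the Swd3 knockout (limma on log2(FPKM + 1)). Median-of-ratios scaling turned these medians to 0.02 and 0.01, and genes called higher then outnumbered those called lower, 3769 to 3686 for Set1 and 3756 to 3671 for Swd3. In the fit without that scaling 43.3% of all tested genes were called lower in the Set1 knockout and 42.5% in the Swd3 knockout, at an adjusted p under 0.05. All 76 members passed the filter on low values and all 76 were called lower in each knockout, from which nothing is read, since the selection required the fall. Fewer cells expressing a gene and less of its RNA per cell cannot be told apart in such bulk samples.

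**Figure D1:**
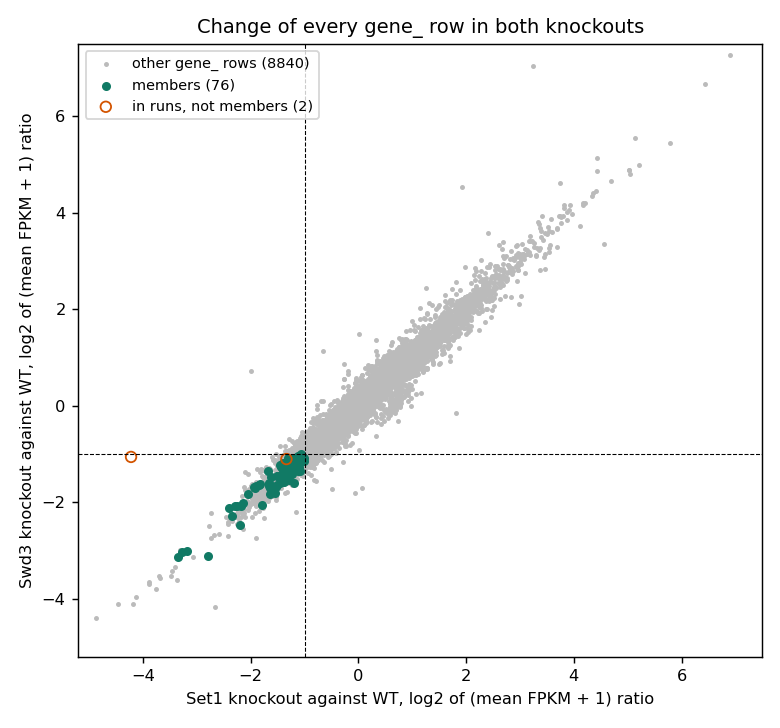
Change in the Swd3 knockout (vertical axis) against the change in the Set1 knockout (horizontal axis), both as the log2 ratio of mean FPKM + 1 to WT, for every gene_ row. The 76 members (filled green) lie in the lower left corner beyond both dashed lines at -1, and of the 2 open circles, which stand for genes in runs that are not members, gene_8282 lies far to the left.

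The members were moderately to well expressed in WT, and each kept less than 50% of its WT level in both knockouts. The rule itself demands less than 50%, and with its added 1 FPKM it disfavours genes of low WT level. Both traits are therefore partly set by the selection. Their WT means ran from 5.07 to 545 FPKM with a median of 45 FPKM, against a median of 17.5 FPKM over all gene_ rows. In the Set1 knockout their median was 14.6 FPKM (range 1.34 to 236), and in the Swd3 knockout 14.4 FPKM (range 1.67 to 253). The median member kept 35.6% of its WT level in the Set1 knockout and 35.8% in the Swd3 knockout, with extremes of 6.58% and 48.9% in the former and 8.21% and 48.1% in the latter. The falling genes outside the runs, 637 in number, had a median WT level of 31.8 FPKM and median log2 changes of -1.32 in the Set1 knockout and -1.31 in the Swd3 knockout, beside -1.40 and -1.42 for the members.

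Most falls were between 2-fold and 4-fold. On the scale of the rule, 12 members fell at least 4-fold in the Set1 knockout and 12 in the Swd3 knockout, 11 of them in both. On that scale an 8-fold fall was reached by 3 members in each knockout, and gene_8024 and gene_8025 were the pair that reached it in both. With the added 1 FPKM, gene_5704 stood just short of it in the Swd3 knockout, at -2.999. By ratio of means gene_5704 fell 15.2-fold and 12.2-fold in the Set1 and Swd3 knockouts. In all 76 members every knockout library lay below every WT library, which also held for 39.5% of all tested genes. By WT level, 12 members stood at 5 to 20 FPKM, 49 at 20 to 100 FPKM and 15 at 100 to 1000 FPKM. Among all gene_ rows of these classes, 7.63%, 12.8% and 11% fell in both knockouts, while of the 1246 rows at 1 to 5 FPKM only 6 did. The 1 FPKM added by the rule demands a steeper fall at low levels, so the low count there is partly set by the rule.

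Replicates of the members were about as close as those of other genes. The median SD between libraries on the log2(FPKM + 1) scale was 0.08 in WT, 0.08 in the Set1 knockout and 0.12 in the Swd3 knockout, against 0.09, 0.09 and 0.11 over all tested genes (n = 3 each). Summed over the 76 members, WT libraries 1, 2 and 3 held 5553, 5396 and 5642 FPKM. The Set1 knockout libraries held 1965, 1855 and 1862 FPKM, and the Swd3 knockout libraries 2095, 1924 and 1870 FPKM. As a share of all FPKM this was 0.754% to 0.800% in WT and 0.254% to 0.296% in the knockouts.

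**Figure D2:**
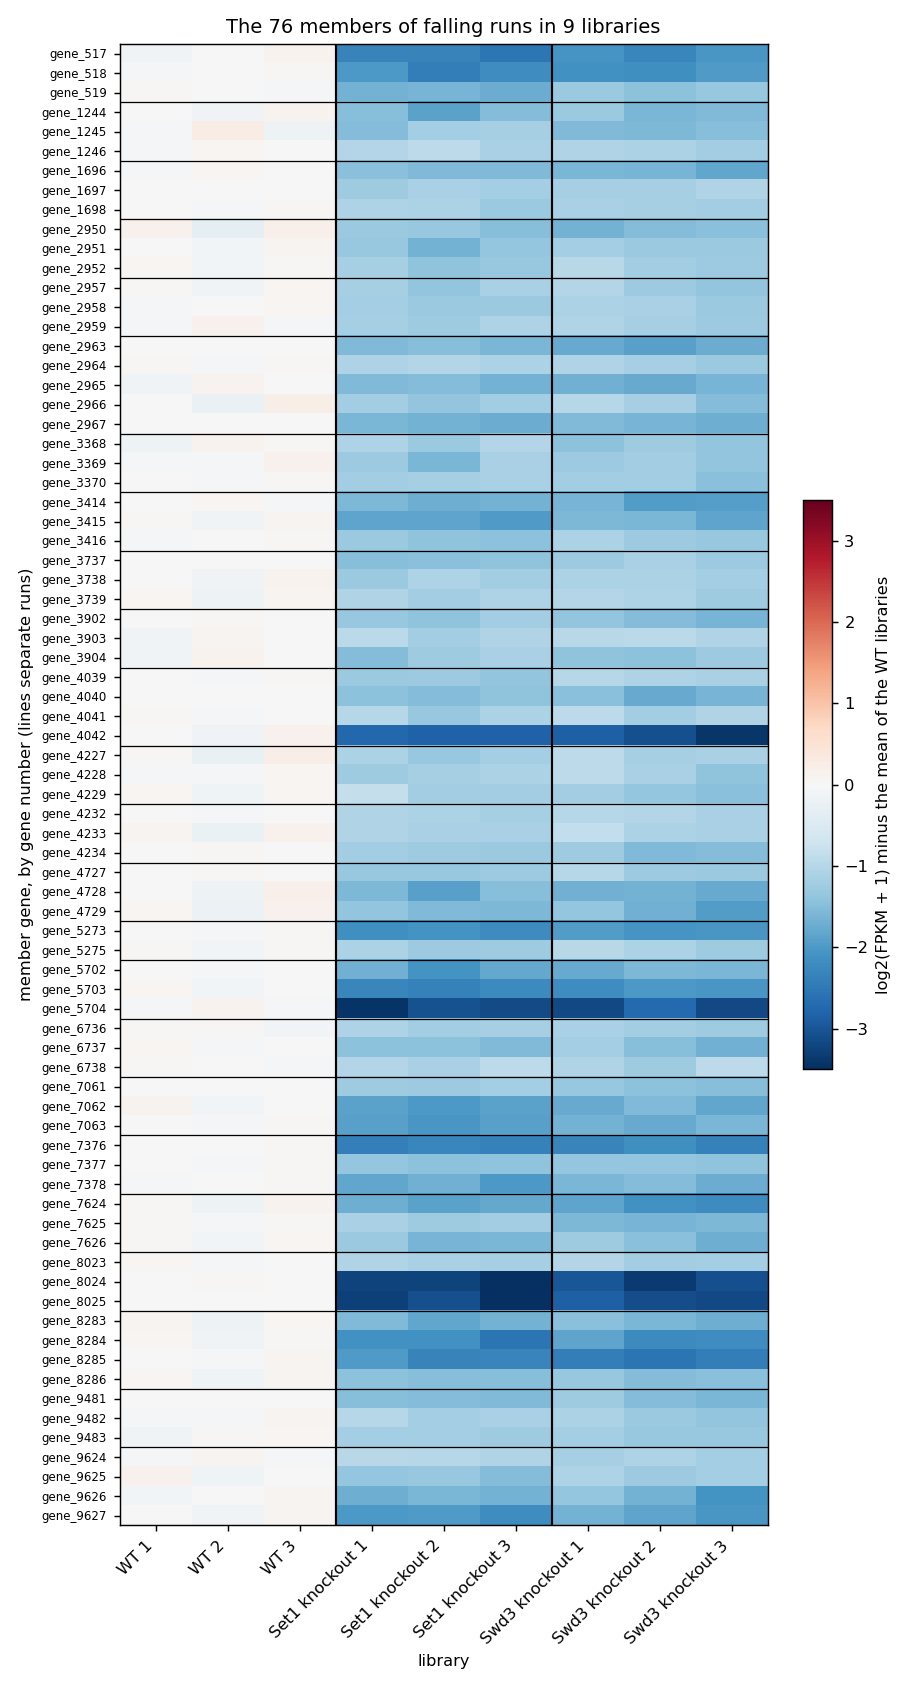
Each row is 1 of the 76 members in order of gene number and each column 1 library; colour gives log2(FPKM + 1) minus the mean of the WT libraries, and lines part the runs. The 3 WT columns are near white and all 6 knockout columns are blue throughout, darkest for gene_4042, gene_5704, gene_8024 and gene_8025.

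The longest stretch of members was the run from gene_2963 to gene_2967, in which all 5 genes were members. Gene_2967, the most abundant of them, measured 114, 115 and 112 FPKM in the WT libraries. It measured 37.1, 35.5 and 33.1 FPKM in the Set1 knockout and 38.1, 36.2 and 34 FPKM in the Swd3 knockout. Both knockouts thus kept nearly the same share, 31.0% and 31.7%.

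Gene_2963, at the other end of that run, was among the least abundant members, with 10.4, 10.2 and 10.3 FPKM in WT. It fell to 2.90, 3.00 and 2.71 FPKM in the Set1 knockout and 2.34, 2.00 and 2.38 FPKM in the Swd3 knockout. The libraries of the knockouts do not overlap, yet the difference of -0.26 between them on the log2(FPKM + 1) scale (SE 0.10) did not pass across all genes (limma adjusted p = 0.114). Gene_2965 had 13.6, 16.2 and 14.7 FPKM in WT, 4.46, 4.51 and 3.98 FPKM in the Set1 knockout and 3.93, 3.68 and 4.09 FPKM in the Swd3 knockout. Its neighbour gene_2964 stood at almost the same WT level, 14.8, 13.8 and 14.9 FPKM, but kept more, with 6.26, 6.57 and 6.17 FPKM in the Set1 knockout and 6.51, 5.89 and 5.33 FPKM in the Swd3 knockout. Adjacent genes of like level therefore differed in how far they fell, to 43.8% for gene_2964 and 29.1% for gene_2965 in the Set1 knockout.

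Gene_2966 completed the run at 22.6, 19.2 and 26.3 FPKM in WT. It read 9.07, 8.11 and 9.17 FPKM in the Set1 knockout and 10.7, 9.54 and 7.16 FPKM in the Swd3 knockout. The ranges of the knockouts overlap each other, and both lie below WT. On the scale of the rule the 5 genes spanned -1.08 to -1.66 in the Set1 knockout and -1.16 to -1.80 in the Swd3 knockout.

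The genes on both sides of this run did not fall 2-fold in both knockouts, and a run ends only at such a gene or at an absent number. Gene_2962 was higher in the knockouts, at 101, 85.2 and 99.3 FPKM in WT, 209, 171 and 185 FPKM in the Set1 knockout and 190, 167 and 154 FPKM in the Swd3 knockout. All knockout libraries exceeded all WT libraries there. Gene_2968, on the other side, had 56.3, 48.5 and 57.6 FPKM in WT against 43.5, 35.8 and 40.9 FPKM in the Set1 knockout and 45.6, 42.3 and 38.2 FPKM in the Swd3 knockout, a smaller fall than that of any member.

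The run from gene_8282 to gene_8286 held 4 members, gene_8283 to gene_8286. Gene_8285 was the most abundant at 186, 178 and 199 FPKM in WT. It measured 46.4, 36.3 and 37.2 FPKM in the Set1 knockout and 34.4, 31.1 and 34.3 FPKM in the Swd3 knockout. Gene_8285 thus kept 21.3% and 17.7%, and it was one of the members that fell over 4-fold in both knockouts.

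Gene_8284 was the other such member of that run, at 21.2, 18.5 and 20.8 FPKM in WT. It read 3.85, 3.84 and 2.57 FPKM in the Set1 knockout and 4.86, 3.51 and 3.66 FPKM in the Swd3 knockout. The ranges of the knockouts overlap each other and lie far below WT. Gene_8283 went from 116, 95.7 and 112 FPKM to 36.4, 29.8 and 33.6 FPKM in the Set1 knockout and 38.7, 34.6 and 32.3 FPKM in the Swd3 knockout. Gene_8286 went from 23.8, 20.5 and 24.4 FPKM to 7.81, 7.41 and 7.41 FPKM in the Set1 knockout and 8.53, 7.28 and 7.57 FPKM in the Swd3 knockout. Both of these kept 30.8% to 34% of their WT level.

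The first gene of that run, gene_8282, was not a member, because its change differed between the knockouts. It was at 17.9, 15.2 and 19.8 FPKM in WT, at 9.94, 7.20 and 6.75 FPKM in the Swd3 knockout, while each library of the Set1 knockout listed it at 0. The gene before it, gene_8281, was higher in both knockouts, from 1.5, 1.70 and 1.21 FPKM in WT to 8.31, 7.91 and 10.9 FPKM in the Set1 knockout and 10.8, 8.35 and 13.7 FPKM in the Swd3 knockout. The boundary of the run thus lay between a gene that was higher in all knockout libraries and one that was lower in all of them. No row carries the number after gene_8286, so that end of the run is set by the table.

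In the run from gene_4039 to gene_4042 the last gene fell much further than the rest. Gene_4042 measured 55.6, 51.6 and 62.6 FPKM in WT, 7.56, 7.14 and 7.11 FPKM in the Set1 knockout and 6.87, 5.80 and 4.38 FPKM in the Swd3 knockout. It kept 12.8% and 10%, and its log2 changes of -2.80 and -3.11 stood against -1.14 and -1.06 for its neighbour gene_4041.

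Gene_4041 had 35.1, 32.6 and 33.7 FPKM in WT, 16.4, 12.9 and 15.1 FPKM in the Set1 knockout and 17.3, 13.9 and 15.8 FPKM in the Swd3 knockout. Gene_4040 had 45.5, 46.2 and 45.6 FPKM in WT, 16.2, 15.2 and 16.5 FPKM in the Set1 knockout and 16.1, 12.9 and 14.1 FPKM in the Swd3 knockout. In both the knockouts overlap each other. Gene_4039 was the most abundant at 186, 181 and 191 FPKM, and it fell to 75.6, 75.9 and 70.7 FPKM in the Set1 but only to 92.7, 87.7 and 83.5 FPKM in the Swd3 knockout. The outer neighbours also lay below WT in every knockout library but by less than 2-fold, gene_4038 with 37.2 FPKM in WT against 19.1 and 20.5 FPKM in the Set1 and Swd3 knockouts, and gene_4043 with 35.0 against 28.2 and 28.1 FPKM (means of 3 libraries).

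**Figure D3:**
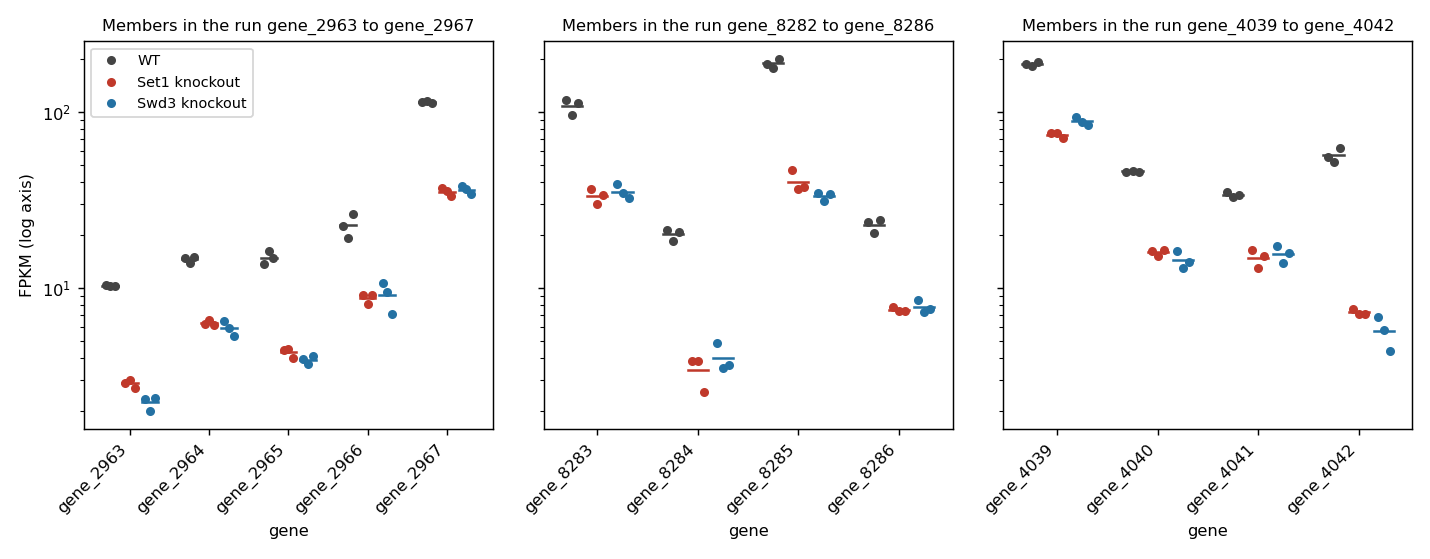
FPKM on a log axis for every library of the 13 members in the runs gene_2963 to gene_2967, gene_8282 to gene_8286 and gene_4039 to gene_4042; points are libraries, short bars the mean of 3, grey WT, red the Set1 knockout and blue the Swd3 knockout. In each gene the grey points lie above all coloured points, and gene_4042 shows the widest gap.

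The largest falls outside those runs were found in the run of gene_8023, gene_8024 and gene_8025 and in the run of gene_5702, gene_5703 and gene_5704. Gene_8025 went from 205, 203 and 200 FPKM in WT to 20.3, 23.3 and 16.9 FPKM in the Set1 knockout and 26.9, 22.7 and 22 FPKM in the Swd3 knockout. Gene_8024 went from 72.4, 76.2 and 72.7 FPKM to 6.95, 6.93 and 5.09 FPKM and to 8.36, 6.32 and 7.81 FPKM in the same order. Of their WT level they kept 9.95% and 11.8% for gene_8025 and 8.57% and 10.2% for gene_8024. The other gene of that run, gene_8023, kept 45.1% and 44.2%, so that the run had the widest spread of log2 changes in the Set1 knockout, 2.23 between its extremes. Neither number beside that run is present in the table.

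Gene_5704 kept the least of all members in both knockouts. It read 19.8, 22 and 19.2 FPKM in WT, 0.985, 1.59 and 1.44 FPKM in the Set1 knockout and 1.38, 2.24 and 1.39 FPKM in the Swd3 knockout. At such levels the added 1 FPKM pulls the log2 change toward 0, and the fitted changes of -3.20 (SE 0.14) and -3.01 (SE 0.14) understate the ratio of means. That ratio was 15.2-fold in the Set1 knockout and 12.2-fold in the Swd3 knockout. Gene_5703, the most abundant of the run, fell from 67.3 ± 3.42 FPKM to 12.9 ± 0.584 and 15.2 ± 0.946 FPKM, and gene_5702 from 61.4 ± 1.4 to 16.4 ± 2.51 and 19.0 ± 1.52 FPKM in the Set1 and Swd3 knockouts (SD, n = 3). The size of the fall thus grew from gene_5702 to gene_5704 in both knockouts.

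The run from gene_517 to gene_519 showed a fall that was larger the lower the gene's WT level. Gene_517 measured 10.6, 11.8 and 12.9 FPKM in WT, 1.52, 1.54 and 1.22 FPKM in the Set1 knockout and 2.05, 1.64 and 2.11 FPKM in the Swd3 knockout. Gene_519 measured 306, 295 and 292 FPKM in WT, 93.3, 96.3 and 88.7 FPKM in the Set1 knockout and 121, 110 and 118 FPKM in the Swd3 knockout. Gene_517 kept 12.1% and 16.4%, gene_518 20.4% and 22%, and gene_519 31.2% and 39.1%. Over these 3 genes the WT levels spanned 25.3-fold, the widest among the 24 runs.

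Falls of over 4-fold in both knockouts also occurred in the runs that begin with gene_5273 and gene_7376. Gene_7376 went from 137 ± 2.57 FPKM in WT to 26.1 ± 1.04 FPKM in the Set1 knockout and 27.4 ± 2.26 FPKM in the Swd3 knockout (SD, n = 3). Its neighbours gene_7377 and gene_7378 kept 25.3% to 36.5%. Gene_5273 went from 63.0 ± 1.46 to 13.4 ± 0.476 and 14.8 ± 0.553 FPKM. In the same run gene_5275, the most abundant member of all, went from 545 ± 32.2 to 236 ± 12.6 and 253 ± 25.3 FPKM. Between them lies gene_5274, which was left out of the members only for its WT level, 4033 ± 273 FPKM, and which fell to 1595 ± 102 and 1879 ± 148 FPKM in the Set1 and Swd3 knockouts.

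In the runs that begin with gene_7061, gene_3414 and gene_7624, falls were of intermediate size. Gene_7063 went from 379 ± 9.68 FPKM in WT to 97.8 ± 5.05 FPKM in the Set1 knockout and 118 ± 7.30 FPKM in the Swd3 knockout, and its run also holds gene_7061 and gene_7062. Gene_3416 went from 262 ± 7.58 to 99.5 ± 5.57 and 111 ± 9.61 FPKM, with gene_3414 and gene_3415 before it at log2 changes of -1.64 to -1.89. Gene_7626 went from 74.4 ± 4.57 to 25.6 ± 3.28 and 26.4 ± 4.27 FPKM (SD, n = 3). Beside it, gene_7624 fell to 26.3% in the Set1 knockout and 21.4% in the Swd3 knockout.

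The run of 4 genes that starts with gene_9624 again showed unequal falls. Gene_9624, its most abundant gene, went from 75.5 ± 4.07 FPKM in WT to 36.9 ± 1.2 FPKM in the Set1 knockout and 33.6 ± 1.43 FPKM in the Swd3 knockout (SD, n = 3). The WT level dropped along the run to 11.8 FPKM at gene_9627, which kept 17.7% and 21.9%. Gene_9625 and gene_9626 lay between them, keeping 28.3% to 41.7%.

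The remaining 12 runs, of 3 genes each, kept their genes within a narrower band, with log2 changes of -1.0 to -1.71 for every member. Among them, gene_4232 with 179 ± 3.44 FPKM in WT fell to 82.7 ± 2.75 and 86.2 ± 4.45 FPKM in the Set1 and Swd3 knockouts. Gene_6737 with 167 ± 8.32 FPKM fell to 59.6 ± 2.52 and 60.9 ± 10.7 FPKM, and gene_9482 with 118 ± 7.27 FPKM to 54 ± 3.58 and 48.5 ± 4.66 FPKM (SD, n = 3). These were the most abundant members of their runs.

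In the same 12 runs, gene_1246 went from 106 ± 5.13 FPKM in WT to 51.5 ± 3.83 FPKM in the Set1 knockout and 48.3 ± 2.89 FPKM in the Swd3 knockout. Gene_1697 went from 82.3 ± 1.21 to 35.7 ± 1.59 and 37.4 ± 1.71 FPKM. Gene_4727 went from 82.2 ± 1.87 to 32.6 ± 0.724 and 35.5 ± 4.15 FPKM. The run of gene_1696 to gene_1698 was the one with the most even WT levels, since its highest was 1.13-fold its lowest.

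Gene_3737 went from 79.1 ± 1.19 FPKM in WT to 28.3 ± 0.752 FPKM in the Set1 knockout and 33.2 ± 1.96 FPKM in the Swd3 knockout. Gene_3902 went from 42.6 ± 0.865 to 16.4 ± 1.09 and 14.4 ± 1.28 FPKM. Gene_3369 went from 28.5 ± 2.72 to 10.8 ± 1.85 and 11.1 ± 0.710 FPKM (SD, n = 3). All 3 led runs whose other members kept between 35.2% and 44.6%.

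Besides the run led by gene_4232, 3 more of the 12 runs belong to groups of runs that lie close together in gene number. Gene_2951 went from 44.2 ± 2.96 FPKM in WT to 15.7 ± 2.02 FPKM in the Set1 knockout and 17.8 ± 0.871 FPKM in the Swd3 knockout. Gene_2957 went from 36.3 ± 2.54 to 15 ± 1.48 and 15.1 ± 2.03 FPKM. Gene_4229 went from 36.9 ± 3.19 to 17.0 ± 2.96 and 13.8 ± 1.28 FPKM (SD, n = 3). On the scale of the rule, with its added 1 FPKM, the run of gene_2957 to gene_2959 fell most evenly. Its log2 changes differed by at most 0.09 in the Set1 knockout and 0.05 in the Swd3 knockout. By ratio of means its falls were less even, because gene_2959 has a low WT level of 5.07 FPKM. Gene_2959 fell 3.01-fold and 2.97-fold in the Set1 and Swd3 knockouts, against 2.42-fold and 2.4-fold for gene_2957.

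Between the numbers 2950 and 2967 there were 3 runs with 11 members among 18 consecutive genes. The 7 genes between these runs spanned log2 changes of -0.94 to 0.98 in the Set1 knockout and -0.96 to 0.83 in the Swd3 knockout, and 3 of the 7 were called lower in both (limma, adjusted p under 0.05), where 41.6% of all tested gene_ rows were. Gene_2953 and gene_2955 did not reach the limit of the rule, with 16 and 75.6 FPKM in WT, 8.51 and 38.9 FPKM in the Set1 knockout and 7.73 and 41.3 FPKM in the Swd3 knockout. Gene_2954 and gene_2961 were not lower than WT, at 4.20 and 72.3 FPKM in WT against 4.47 and 76.9 FPKM in the Set1 knockout and 4.36 and 83.7 FPKM in the Swd3 knockout. A second such group held 6 members in 2 runs among the 8 genes from number 4227 to 4234. There the runs were parted by gene_4231, at 57.1 FPKM in WT and 40.2 and 38.9 FPKM in the Set1 and Swd3 knockouts, and by gene_4230, which went the other way from 1.44 to 3.89 and 4.3 FPKM.

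**Figure D4:**
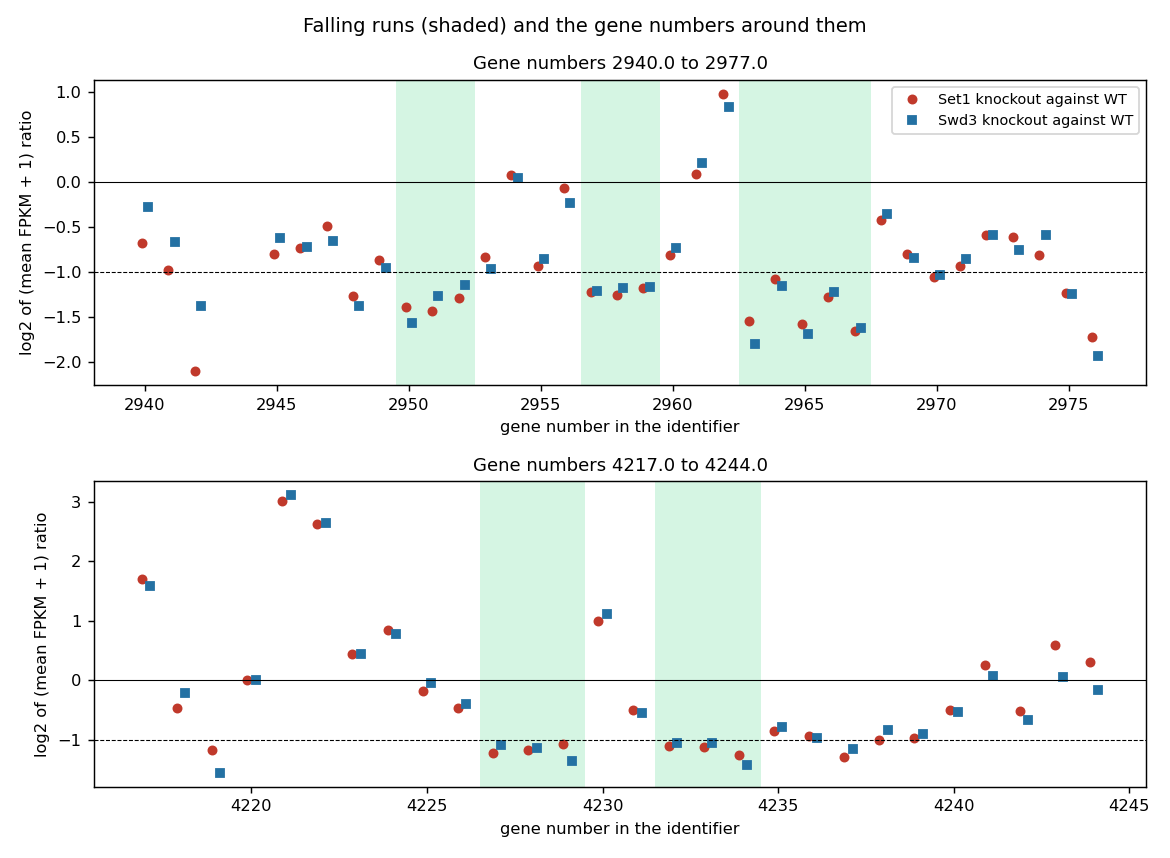
Log2 ratio of mean FPKM + 1 to WT for each gene number around the 2 groups of neighbouring runs, red circles for the Set1 and blue squares for the Swd3 knockout; shading marks the runs and the dashed line the rule's limit of -1. Shaded genes lie below the dashed line in both knockouts, and genes between the runs range from just above it to above 0.

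The 24 runs, these groups included, were spread over the numbering from gene_517 to gene_9627. The median distance from the end of one to the start of the next was 321 numbers. Each of the first 10 blocks of 1000 numbers held 1 to 4 runs. Of the 715 falling genes, 493 had no falling gene on either side, 144 formed 72 pairs, and 78 (10.9%) stood in runs, of which 20 had 3 genes, 2 had 4 and 2 had 5. Numbers absent from the table, 1101 between 2 and 10020, bound 8 of the 48 run ends, so some runs may be cut short. When absent numbers were passed over, an alternative chosen after seeing the data, the rule gave 27 runs with 90 members, the 76 among them.

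Falling genes had a falling gene beside them more often than other genes did. Of 629 falling genes whose next number is present, 126 (20%) were followed by a falling gene, against 523 of 7360 other genes (7.11%). At 2 steps the shares were 14.4% and 7.40%, at 10 steps 10.7% and 7.96%, and at 20 steps 7.5% and 8.19%. The members were picked for having such neighbours, so these shares over all falling genes describe the table and are no test of the runs.

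**Figure D5:**
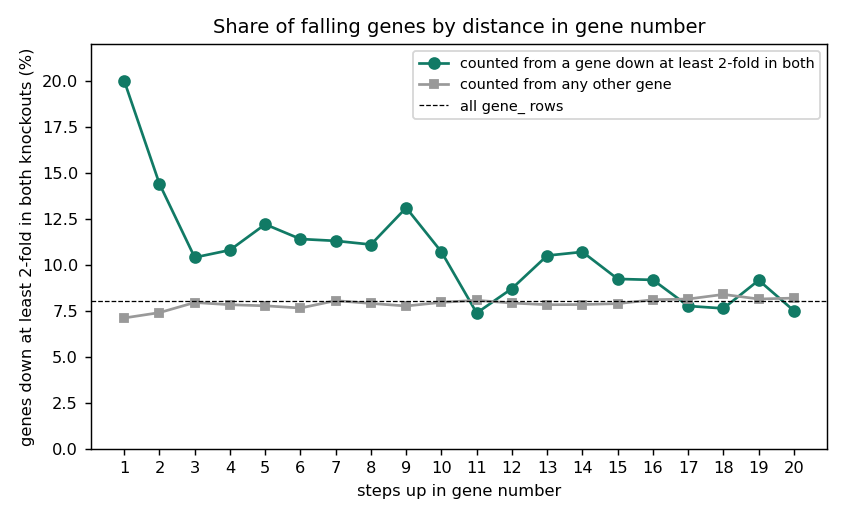
Share of genes down at least 2-fold in both knockouts (vertical axis, percent) by the number of steps up in gene number, counted from a falling gene (green) or from any other gene (grey); the dashed line is the share in all gene_ rows, 8.02%. The green line starts at 20% at 1 step and is at 7.5% at 20 steps, and the grey line stays between 7.11% and 8.39%.

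Genes near the runs that the rule did not select were also lower more often than the table as a whole. At 2 to 10 numbers from a run there were 348 further genes, 343 of them tested, of which 207 (60.3%) were called lower in both knockouts and 70 higher in both (limma, adjusted p under 0.05). Their median log2 changes were -0.45 and -0.44 in the Set1 and Swd3 knockouts, against -0.07 and -0.06 over all gene_ rows. Over all 8580 tested gene_ rows, 3568 (41.6%) were called lower in both and 2870 higher in both. The share called lower differed with WT level, so the shares were also taken by level. Below 5 FPKM, 10.2% of the nearby genes and 4.26% of all were called lower in both. In that class most went the other way, with 32 of the 49 nearby tested genes and 1349 of all 1830 higher in both. At 5 to 20 FPKM 65.3% of the nearby genes and 42.8% of all were called lower in both. At 20 to 100 FPKM the shares were 72.2% and 58.8%, and at 100 FPKM or more 64.6% and 53.7%. The genes directly beside a run, which the rule keeps from falling 2-fold in both, had medians of -0.60 and -0.55 over the 40 present, and 29 of the 39 tested were called lower in both. The difference between nearby genes and the rest was not tested.

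The order of expression within a run was mostly the same in all genotypes. In 18 of the 24 runs the members ranked by mean FPKM in the same order in WT and both knockouts, and in 19 runs each knockout alone kept the WT order. Where it changed, a gene with a steeper fall had passed below a neighbour, as gene_4042, which ranked above gene_4040 and gene_4041 in WT at 56.6 against 45.8 and 33.8 FPKM but below both in the Set1 knockout at 7.27 against 16 and 14.8 FPKM. Within a run the WT means of members differed by 5.66-fold at the median (range 1.13 to 25.3). The log2 changes within a run spanned 0.55 at the median in the Set1 knockout and 0.54 in the Swd3 knockout. The kept order was not compared with that among falling genes outside the runs, so it does not set the runs apart from them.

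Both knockouts share their WT libraries, and the rule bounds how far they may differ, so the likeness of their values is given as a description only. The fall was larger in the Set1 knockout for 45 members and in the Swd3 knockout for 31, with Swd3 minus Set1 differences from -0.39 to 0.32 and a median of 0.04. In 5 runs every member fell further in the Set1 knockout, in 0 runs every member fell further in the Swd3 knockout, and 19 runs were mixed. In the direct fit 6 of the 76 members were called, 4 higher and 2 lower in the Swd3 knockout, where 12.8% of all tested genes were called (limma, adjusted p under 0.05). The count of members called lower was 7 without Swd3 knockout replicate 1 and 1 without Swd3 knockout replicate 2 or 3 or Set1 knockout replicate 2 or 3.

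The largest of these differences was that of gene_7625, with 22.5, 20.7 and 21.1 FPKM in the Set1 knockout and 16.4, 15.7 and 16.3 FPKM in the Swd3 knockout, after 52.4, 47.9 and 51.6 FPKM in WT. Its 3 groups do not overlap at all. Gene_519, gene_7063, gene_4039 and gene_3737 were the 4 members called higher in the Swd3 knockout. In that order, their lowest Swd3 library read 110, 110, 83.5 and 31.9 FPKM. The highest Set1 library lay below it in each, at 96.3, 101, 75.9 and 29 FPKM. Gene_7061, the other member called lower in the Swd3 knockout, was at 64.6, 62.9 and 66.5 FPKM in the Set1 knockout and 60.9, 56.2 and 53.6 FPKM in the Swd3 knockout. It stands 2 numbers from gene_7063, which differed in the opposite direction.

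Because the rule used every library, it was repeated on the libraries of 2 replicate numbers and the values were then read in the 3 libraries left out. With number 1 left out, the rule gave 75 members, 73 of them shared with the 76. In the left-out libraries their median log2 changes were -1.36 in the Set1 knockout and -1.29 in the Swd3 knockout, and 61 (81.3%) were again down at least 2-fold in both. With number 2 left out, the rule gave 71 members (66 shared), with left-out medians of -1.40 and -1.38, and 59 (83.1%) again down. With number 3 left out, it gave 65 members (62 shared), with medians of -1.55 and -1.60, and 63 (96.9%) again down. Among all gene_ rows the same left-out libraries showed such a fall in 6.88%, 7.55% and 9.62%. In each case every member lay below its WT value in both left-out knockout libraries, the smallest fall being a log2 change of -0.69. One library per genotype remains for this reading, so it has no error and no test. No such reading was made for falling genes outside the runs, so it does not set the runs apart from them. The left-out libraries may also come from the same cultures as the others.

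The limits of the rule fell inside a continuous spread of values. The members closest to the limit were gene_9624, at -1.012 in the Set1 knockout, and gene_3903, at -1.001 in the Swd3 knockout. Just outside lay gene_2260, at 123 FPKM in WT and 61.1 FPKM in the Set1 knockout, and gene_7263, at a log2 change of -0.999 in the Swd3 knockout. The limits on WT level and on the difference between the knockouts were less close, since the nearest members, gene_5275 at 545 FPKM and gene_7625 at a difference of 0.39, were well inside, and the nearest genes in runs on the other side were gene_5274 at 4033 FPKM and gene_8282 at a difference of 3.16.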

How the data were processed

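Per the labels, 9 RNA-seq libraries (3 WT, 3 Set1 knockout, 3 Swd3 knockout) were made from mycelium RNA, and groups and replicate numbers come from the titles. The authors deposited 1 table of FPKM values. FastQC, HISAT2 and StringTie are named, per the submitters' processing notes. Their versions, the genome build, the annotation and strandedness were not given in the sources used here. Without counts, depth is unknown and no count test, interval or floor was computed.

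Genes with at least 1 FPKM in at least 3 libraries (9153 of 9869) were fitted as log2(FPKM + 1) with limma 3.58.1 in R 4.3.3 (group means over all 9 libraries, empirical Bayes with trend). P-values are two-sided and Benjamini-Hochberg adjusted over all tested genes, threshold 0.05. The fit was tested on simulated data. The rule for the runs was applied in Python 3.11.15 with pandas 2.3.3. The members and the genes named were chosen with earlier results of these data known. Named are all members of the 3 runs with the most members (of 3 runs tied at 4 members, the 2 with the lower mean log2 change, which left gene_9624 to gene_9627 among the others), the most abundant member of each other run, the 4 lowest changes per knockout, the 4 largest differences between knockouts, genes nearest each limit and genes beside those 3 runs. Other genes named in the text (further run members, genes within the groups of runs and members called in the direct comparison) were added after their values were seen. Libraries with the same number were treated as unpaired. Pseudocounts, filter, scalings, run length, limits and left-out libraries were varied.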

Additional observations from a re-analysis of the deposited data

Results flagged for a closer look

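Genes standing in the runs were marked where the direct test of the Swd3 against the Set1 knockout passed (limma, adjusted p under 0.05 over all tested genes), that is, where the fall against WT differed between the knockouts. The rule bounds this difference for members, and both falls share the WT libraries. On the log2(FPKM + 1) scale, the Swd3 minus Set1 difference was -0.39 for gene_7625, 0.32 for gene_519, 0.26 for gene_7063, 0.24 for gene_4039, 0.22 for gene_3737 and -0.18 for gene_7061, with limma adjusted p of 0.00108, 0.000799, 0.00613, 0.00738, 0.0209 and 0.0409. Gene_5274, too abundant to be a member, had a difference of 0.23 (limma adjusted p = 0.0318), and this call was lost without Set1 knockout replicate 1 or 3 or Swd3 knockout replicate 2 or 3 (limma adjusted p of 0.0905 to 0.125) and under median of ratios (0.194) or quantile normalization (0.0672). Gene_8282, left out of the members for its difference, stood at 3.15 (limma adjusted p = 2e-08), a value that depends on the added 1 FPKM because the gene is listed at 0 in the Set1 knockout. Groups of 3 libraries are too small for a check of single outlying samples.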

How the results depend on the processing

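All 76 members were called lower and 0 higher than WT in each knockout under every setting tried, including each library left out. The selection required this fall in the same libraries, so the count is no check of the members. Over all tested genes, 43.3% were called lower in the Set1 knockout and 42.5% in the Swd3 knockout in the main fit. The number of members depends on the rule. With 0.1 FPKM added in place of 1 it gave 90 members in 29 runs, and with 0.5 FPKM 83 in 27 runs, the 76 among them each time. Runs of at least 4 gave 17 members in 4 runs (17 of the 76), runs of at least 2 gave 216 in 96 runs, a limit of -0.8 gave 182 in 53 runs, and a limit of -1.2 gave 25 in 8 runs (25 of the 76). Median-of-ratios scaling gave 54 members in 18 runs, all among the 76, and quantile normalization gave 53 in 17 runs with 38 of the 76; the cause was not tested. Leaving out 1 library gave 69 to 81 members in 22 to 26 runs, with 67 to 76 of the 76, and leaving out 1 replicate number gave 65 to 75. Of the direct comparison, the count of members called lower in the Swd3 knockout, 2 as reported, was 1 under a common total, 4 under median of ratios, 10 under quantile normalization and 1 with the compared groups alone, and 1 to 7 without 1 library. Members called higher numbered 3 to 5 without 1 library. Over all genes the direct calls, 610 higher and 563 lower, were 362 to 659 and 371 to 678 without 1 library, the lowest without Swd3 knockout replicate 2, and 782 and 437 under a common total. Gene_4042 was called lower under median of ratios (-0.34), quantile normalization (-0.43) and without Swd3 knockout replicate 1 (-0.45). Gene_4043 was not called against WT under quantile normalization (-0.09 and -0.12). Deviations from the group means correlated between same-numbered libraries at -0.132 to 0.295 in 9 pairs, above 0.1 in 4 of them. The numbers were still not taken as pairs. A fit with the replicate block called 4027 genes lower and 3494 higher for Set1, and 3972 and 3546 for Swd3. In the direct comparison that fit called 712 genes higher and 657 lower, and 3 members lower and 4 higher. Scalings moved the median change of all genes by at most 0.08, which changed its sign against WT under median of ratios (to 0.02 for Set1 and 0.01 for Swd3, with 3769 genes called higher and 3686 lower, and 3756 and 3671) and between the knockouts under quantile normalization (from 0.02 to -0.001). Against WT, no gene chosen by the stated naming rule changed direction in the settings tried. Without counts, what depth limits is unknown.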
